A study of Mus musculus with 48 samples.

Results

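The step from day 3 to day 6 of induced browning was examined in preadipocytes that lack HMGN1 and HMGN2. The comparison holds 6 of the 48 RNA-seq libraries of the series, chosen by their labels: 3 DKO preadipocyte libraries of day 3 and 3 of day 6. DKO stands for the genotype Hmgn1-/- and Hmgn2-/-, which all 6 libraries share, in mice of a C57BL/6 background. The deletions are carried in every cell of the animal from the germline on, so the cells had lacked both proteins since before the culture began. Preadipocytes were taken from inguinal white adipose tissue (iWAT), the fat pad under the skin of the groin, of young adult mice and grown to confluence on collagen. They then received a differentiation medium with insulin, dexamethasone, IBMX, T3 and rosiglitazone for 4 days, followed by a maintenance medium with insulin and T3 alone. The day 3 cells were therefore collected in the full cocktail and the day 6 cells after dexamethasone, IBMX and rosiglitazone had been withdrawn, and the passage of time and the change of medium cannot be told apart. WT preadipocytes of the same days and media (3 libraries a day) are given beside the DKO values. The study lists the WT mice as C57BL/6 and the DKO mice as a B6.Cg line. The study describes the 3 libraries of a group as biological replicates, but neither it nor the labels say whether they came from separate animals or from separate cultures, so the p-values measure the spread between these libraries.

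Conversion of a preadipocyte into a fat cell starts with transient factors, the C/EBPβ and C/EBPδ proteins, which turn on PPARγ and C/EBPα. PPARγ and C/EBPα keep each other active and bind at most genes of the fat cell, among them those for fatty acid uptake, triglyceride synthesis and the coat of the lipid droplet. In brown and beige fat cells the coactivator PGC-1α and the receptor PPARα add genes for mitochondria and fatty acid oxidation, and UCP1 lets protons leak across the inner mitochondrial membrane so that fuel is burned as heat. In the cocktail, dexamethasone acts on the glucocorticoid receptor, IBMX raises cyclic AMP by blocking phosphodiesterases, rosiglitazone binds PPARγ and T3 is thyroid hormone. HMGN1 and HMGN2 are small proteins that bind nucleosomes throughout the genome.

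The deposited expected counts summed to between 21384313 and 28673030 per DKO library of these days. Levels are given in CPM, counts scaled with TMM to a common library size. A fold change is the fitted log2 ratio of day 6 to day 3. Its standard error was derived from the test, as the size of the fold change over the square root of the F statistic. The 10 most abundant genes held 8.68% to 9.72% of the counts at day 3 and 13.7% to 15.4% at day 6. In a principal component analysis with the WT libraries of the same days, the first component (74.2% of the variance) separated the days and the second (6.94%) the genotypes. Hmgn2 was at 0.329, 0 and 0 CPM in the day 3 libraries and at 0, 0 and 0.044 CPM in the day 6 libraries, against means of 112 and 109 CPM in WT cells. Hmgn1 kept counts in DKO cells, 91.7 and 91.6 CPM on average at days 3 and 6 against 157 and 111 CPM in WT cells. Counts per gene cannot show which exons those reads came from. Markers of other cell types were examined before the results. Of 11 tested macrophage and leukocyte markers, 10 were higher at day 6 (median log2 fold change 4.82, 5.94 in WT cells), and their summed share of the counts went from 0.0206%, 0.0228% and 0.00603% in the day 3 libraries to 0.621%, 0.26% and 0.432% in the day 6 libraries. The macrophage mannose receptor Mrc1, for example, was at 13.9, 21.4 and 6.58 CPM at day 3 and at 1311, 380.1 and 983 CPM at day 6. No defining marker of the list was at 0, Cd14 did not pass the test and Fcgr1 was too low to be tested. The other marker lists held little: none of 5 endothelial, 6 Schwann cell, 2 mesothelial or epithelial and 2 muscle markers tested rose, and their summed shares stayed at or under 0.00753% in each DKO library. Y-linked genes were present in every library, with Eif2s3y and Uty called higher at day 6 among the 4 sex-linked genes tested. In bulk RNA, fewer cells of a type and less RNA per cell cannot be told apart, and this holds for every change below.

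The change between the days was broad. edgeR's quasi-likelihood test covered 15008 genes, and 7527 of them (50.2%) were called. A call asked for a 1.5-fold change and, after Benjamini-Hochberg adjustment, a p-value under 0.05. They divided into 3601 genes that rose (24% of those tested) and 3926 that fell (26.2%). The counts of the gene lists below are to be read beside these shares. Changes were large: 482 genes were at least 8-fold higher and 450 at least 8-fold lower at day 6, and the median of the called genes was 1.33 on the log2 scale for those that rose and -1.5 for those that fell. In 10917 genes (72.7% of those tested) the 3 libraries of one day all lay above the 3 of the other. The balance of rises and falls depends on the scaling. With library size alone in place of TMM, the median of all tested genes moved from -0.02 to -0.24 and rises made up 36.1% of the calls in place of 47.8%. The sign of a small fold change therefore depends on the scaling.

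Genes of the fat cell rose together. Among 29 tested mature adipocyte markers, 28 rose and 1 fell, with a median log2 fold change of 2.98 beside -0.02 over all tested genes. All 15 tested lipid droplet and lipolysis genes rose (median 2.62), as did 17 of 20 genes of fatty acid and triglyceride synthesis (median 1.96), where 2 fell. Fabp4, the fatty acid carrier that is the most widely used adipocyte marker, was at 1127, 1845 and 1568 CPM in the day 3 libraries and at 14909, 17793 and 15967 CPM in the day 6 libraries. Every day 6 library lay above every day 3 library, and the rise was 3.37 ± 0.22 on the log2 scale (SE, n = 3 libraries a day, adjusted p = 1.86e-05 by edgeR), or 10.4-fold. Scd1, which puts the double bond into newly made fatty acids, rose from 2440, 4232 and 2811 CPM to 45411, 52052 and 54659 CPM, a change of 3.95 ± 0.26 (adjusted p = 2.01e-05). No other protein-coding gene gained as many CPM over the step. Adiponectin (Adipoq), the hormone that fat cells secrete, went from 177, 222 and 216 CPM to 1106, 1678 and 1196 CPM (2.64 ± 0.18, adjusted p = 2.49e-05). In each of these 3 genes the lowest day 6 library was well above the highest day 3 library. Replicate 2 of day 6 was the highest library for Fabp4 and Adipoq, while Scd1 was highest in replicate 3. Replicate 2 had the lowest summed share of macrophage markers of the 3, and the part of those markers in the adipocyte values was not tested.

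Within this group, uptake, synthesis and storage of fat were all represented. The glucose transporter Slc2a4 (GLUT4) had 2.97, 5.87 and 6.43 CPM at day 3 and 233, 255 and 314 CPM at day 6, a rise of 5.67 ± 0.32. Cd36, the fatty acid translocase of the plasma membrane, rose by 3.32 ± 0.22 (means 407 and 4207 CPM). Lpl, which releases fatty acids from circulating triglyceride, rose by 2.15 ± 0.16. For synthesis, Fasn (fatty acid synthase) rose by 2.29 ± 0.16, Acss2, which makes acetyl-CoA from acetate, by 3.57 ± 0.18, and Thrsp, a lipogenic regulator, by 5.59 ± 0.17. Thrsp was at 8.5, 11.7 and 11 CPM at day 3 and at 474, 517 and 566 CPM at day 6. The 2 synthesis genes that fell were Elovl6 (-1.08 ± 0.27) and Fads2, which lengthen and desaturate fatty acids. Droplet proteins rose across the family, with Plin1 at 2.69 ± 0.16, Plin2 at 2.62 ± 0.19, Plin4 at 2.97 ± 0.12 and Plin5 at 4.80 ± 0.41. Lipases rose as well, with Pnpla2 (ATGL) at 2.69 ± 0.18 and Lipe (hormone-sensitive lipase) at 2.86 ± 0.16. The mature adipocyte marker that fell was Nnat (neuronatin), from 15.1, 10.4 and 17.1 CPM to 0.776, 1.65 and 0.749 CPM. Leptin (Lep) was at 0.0329, 0 and 0 CPM in the day 3 libraries and had no count at day 6, and was not tested.

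The regulators above these genes moved less. Of 30 adipogenic transcription factors and coactivators, 21 rose, 3 fell and 6 were not called, with a median log2 fold change of 1.10. Pparg (mm10, chromosome 6, 115360951 to 115490399) was at 30.4, 38.8 and 33.4 CPM in the day 3 libraries and at 162, 217 and 176 CPM in the day 6 libraries. The libraries of the days did not overlap, and the rise was 2.38 ± 0.14 (adjusted p = 1.39e-05). Cebpa, the partner of Pparg, rose by 1.86 ± 0.17, from 102, 139.7 and 131 CPM to 411, 564 and 427 CPM. The early factors behaved otherwise: Cebpb was at 14.2, 22.2 and 25.7 CPM and then 24.1, 26.4 and 26.3 CPM (0.26 ± 0.21, adjusted p = 0.306), and Cebpd at 22.9, 52.8 and 58.5 CPM and then 27.4, 22.4 and 22 CPM (-0.95 ± 0.35, adjusted p = 0.051). Their days overlapped, and neither was called. Among members of at least 5 CPM, receptors and sensors of fat metabolism rose most. Ppara rose by 4.69 ± 0.44, the carbohydrate sensor Mlxipl (ChREBP) by 4.00 ± 0.11, Ppargc1a (PGC-1α) by 3.50 ± 0.27 and the oxysterol receptor Nr1h3 (LXRα) by 2.50 ± 0.09. The 3 that fell were Nr4a1 (-2.68 ± 0.18), an immediate early gene of cyclic AMP signalling, and the Krüppel-like factors Klf5 (-1.98 ± 0.46) and Klf4 (-0.76 ± 0.17). Among 23 tested genes of a list drawn up as anti-adipogenic regulators, 12 fell and 2 rose (median -0.89). Whether each member holds adipogenesis back in these cells was not tested. Gata2, which blocks the step from preadipocyte to fat cell, fell from 15.8, 11 and 20.1 CPM to 0.822, 0.605 and 0.793 CPM. Snai2, a zinc finger repressor of mesenchymal cells, fell by 3.10 ± 0.20 on the log2 scale. The 2 that rose were Foxo1 (1.49 ± 0.12) and Ddit3 (1.81 ± 0.19), known also as CHOP.

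Most brown and beige genes rose too, with exceptions. Of 26 tested, 17 rose and 3 fell (median 2.59). Ucp1 (chromosome 8, 83290352 to 83298452 of mm10) was at 0.0329, 0.844 and 1.12 CPM in the day 3 libraries and at 44.4, 58.7 and 49.5 CPM in the day 6 libraries. Replicate 1 of day 3 was close to 0 and the other 2 were near 1 CPM, while the lowest of day 6 was at 44.4 CPM, a rise of 6.23 ± 0.60 (adjusted p = 2.15e-04). Cidea, a droplet protein of brown fat cells, was listed at 0, 0 and 0.361 CPM at day 3 and at 70.1, 43.3 and 110.4 CPM at day 6. It had no count in 2 of the day 3 libraries and many in each of day 6 (9.19 ± 0.80, adjusted p = 1.43e-04), although a fold change from so few counts depends on the prior count of the fit. Cox7a1, a subunit of cytochrome oxidase found in heart, muscle and brown fat, went from 1.58, 2.53 and 2.28 CPM to 97.1, 104 and 125 CPM (5.63 ± 0.20). Cpt1b, the muscle-type carnitine transferase that admits fatty acids to mitochondria, rose by 6.10 ± 0.28, Elovl3 by 4.07 ± 0.45 and the beta-3 adrenergic receptor Adrb3 by 2.24 ± 0.34. Cox8b was at most 3 counts in each day 3 library and at 9.27, 6.93 and 9.12 CPM at day 6. Prdm16, a coregulator that specifies the brown and beige fate, was at 6.46, 6.36 and 9.11 CPM and then 7.13, 6.54 and 9.56 CPM, with overlapping libraries (0.04 ± 0.22, adjusted p = 0.883). Ebf2, of the same list, rose from 26.1, 20.3 and 17.9 CPM to 64.8, 76.4 and 97.6 CPM (1.85 ± 0.20, adjusted p = 2.15e-04 by edgeR). Dio2, the deiodinase that activates thyroid hormone and is itself induced by cyclic AMP, fell from 61.2, 44.5 and 46.9 CPM to 8.13, 11 and 11 CPM (-2.39 ± 0.17, adjusted p = 2.98e-05). The other members that fell were Adcy3 and Lhx8. Of 8 tested genes of the creatine and calcium cycles, the routes by which beige cells can make heat without UCP1, Gamt rose (0.92 ± 0.19) while Alpl (-3.68 ± 0.18) and Slc6a8 (-1.20 ± 0.18) fell. The shares that rose and fell were 12.5% and 25%, beside 24% and 26.2% of all tested genes.

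**Figure D1:**
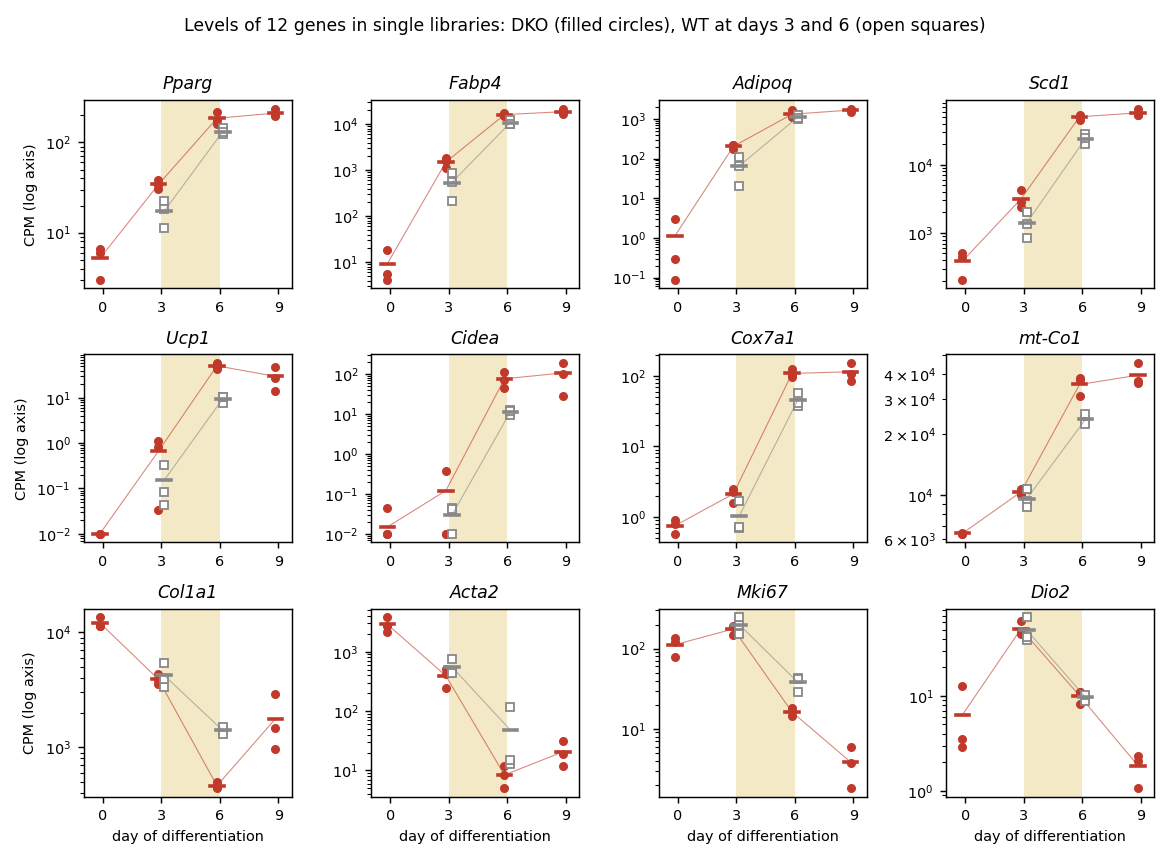
Levels of 12 genes in single DKO libraries (filled circles) at days 0, 3, 6 and 9 and in WT libraries (open squares) at days 3 and 6, in CPM on a log axis, with horizontal marks at the group means, lines joining the means, values under 0.01 CPM drawn at 0.01, and the step from day 3 to day 6 shaded. Fat cell and brown fat genes such as Fabp4 and Ucp1 climb over the shaded step, after which mean Fabp4 is at 18792 CPM and mean Ucp1 at 29.8 CPM at day 9, while Acta2, Mki67 and Dio2 drop over it.

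The levels at all 4 days set the step beside the rest of the course in DKO cells. Mean Fabp4 was at 9.34, 1513, 16223 and 18792 CPM at days 0, 3, 6 and 9. Mean Ucp1 was at 0, 0.666, 50.9 and 29.8 CPM over the same days. Both genes were highest after the change of medium, Fabp4 at day 9 and Ucp1 at day 6. Dio2 peaked earlier, at 6.33, 50.9, 10.1 and 1.83 CPM. These means describe the course, and days 0 and 9 were not tested against the others.

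Genes of the mitochondria mostly rose. Of 71 tested nuclear genes of oxidative phosphorylation, 70 rose and none fell (median 1.68). The exception, Atp5g1, was not called. Rises of the same kind were seen for 24 of 25 genes of the TCA cycle and pyruvate entry (median 2.16), 24 of 26 genes of fatty acid beta-oxidation (median 2.32), 21 of 22 peroxisome genes (median 1.54) and 24 of 28 genes of mitochondrial biogenesis and the mitochondrial ribosome (median 1.02). Cytochrome c (Cycs), the carrier between complexes III and IV, was at 162, 240.0 and 216 CPM in the day 3 libraries and at 1338, 1577 and 1582 CPM in the day 6 libraries. The days did not overlap, and the rise of 2.81 ± 0.17 (adjusted p = 1.67e-05) was the largest of the oxidative phosphorylation list. Mpc1, a subunit of the pyruvate carrier, rose from 43.7, 72 and 58.8 CPM to 662, 817 and 714 CPM. The beta-oxidation enzymes Eci1 and Acadm rose by 3.53 ± 0.17 and 3.18 ± 0.11. Tfam, which packages mitochondrial DNA and helps start its transcription, rose by 0.75 ± 0.13. The isoforms of the carnitine gate moved apart: Cpt1b rose while the liver-type isoform Cpt1a fell from 90.2, 106 and 123 CPM to 30.3, 31.8 and 23.8 CPM (-1.94 ± 0.15, adjusted p = 4.08e-05). The kinase Pdk4, which shuts pyruvate out of the TCA cycle, rose in the same list as Mpc1, from 47.8, 28.7 and 27.6 CPM to 284, 252 and 432 CPM.

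Transcripts of the mitochondrial genome followed. Of 13, 12 rose (median 1.48). Their summed share of the counts was 2.87%, 3.14% and 3.05% in the day 3 libraries and 8.31%, 10.6% and 9.76% in the day 6 libraries. mt-Co1 was at 9944, 10691 and 10364 CPM at day 3 and at 30948, 37191 and 38418 CPM at day 6, with no overlap between the days (1.73 ± 0.15, adjusted p = 5.70e-05). With limma-voom and quantile normalization it was not called, at 0.39 on the log2 scale (adjusted p = 0.0858). Transcripts of this genome in a library also depend on the way RNA was selected, and the labels name polyA RNA where the study's methods name a total RNA kit.

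**Figure D2:**
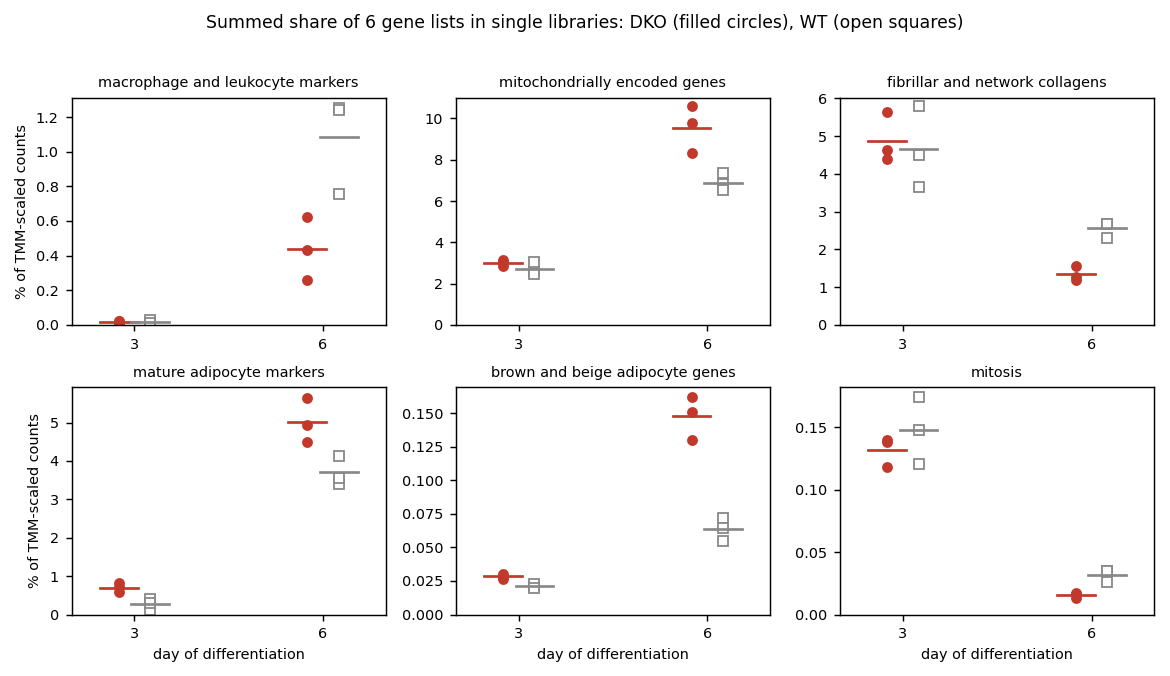
Summed share of the TMM-scaled counts (percent, linear axes from 0) of 6 gene lists in single libraries at days 3 and 6, DKO as filled circles and WT as open squares, with horizontal marks at the group means. In DKO cells the mitochondrially encoded genes go from about 3% to between 8.31% and 10.6%, collagens drop to between 1.20% and 1.57%, and macrophage markers rise from at most 0.0228% to between 0.26% and 0.621%.

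Genes of glucose handling and secretion changed in both directions. Of 18 genes of glucose uptake and insulin signalling, 11 rose and 5 fell (median 1.10). Besides Slc2a4, hexokinase Hk2 rose (2.12 ± 0.28), and so did Tbc1d4, the insulin-regulated brake on GLUT4 vesicles, whereas the IGF-1 receptor Igf1r fell from 138, 175 and 204 CPM to 47.5, 41.5 and 36.6 CPM. Of 24 adipokines and secreted factors, 11 rose and 5 fell (median 0.77). Retinol-binding protein Rbp4 was at 7.28, 17.3 and 15.4 CPM in the day 3 libraries and at 558, 522 and 566 CPM in the day 6 libraries (5.32 ± 0.35), and resistin (Retn) went from 6.56, 9.32 and 10.7 CPM to 160.5, 138 and 126 CPM (3.95 ± 0.20). Several binding proteins of the insulin-like growth factors fell. Igfbp2 went from 16.8, 91 and 43.4 CPM to 0.594, 0.934 and 0.396 CPM, and Igfbp4 and Igfbp5 changed by -2.04 and -2.13 on the log2 scale. Igf1 (-1.01 ± 0.19) and Serpina3n (-1.22) fell as well, whereas the binding protein Igfbp3 was among the members that rose.

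**Figure D3:**
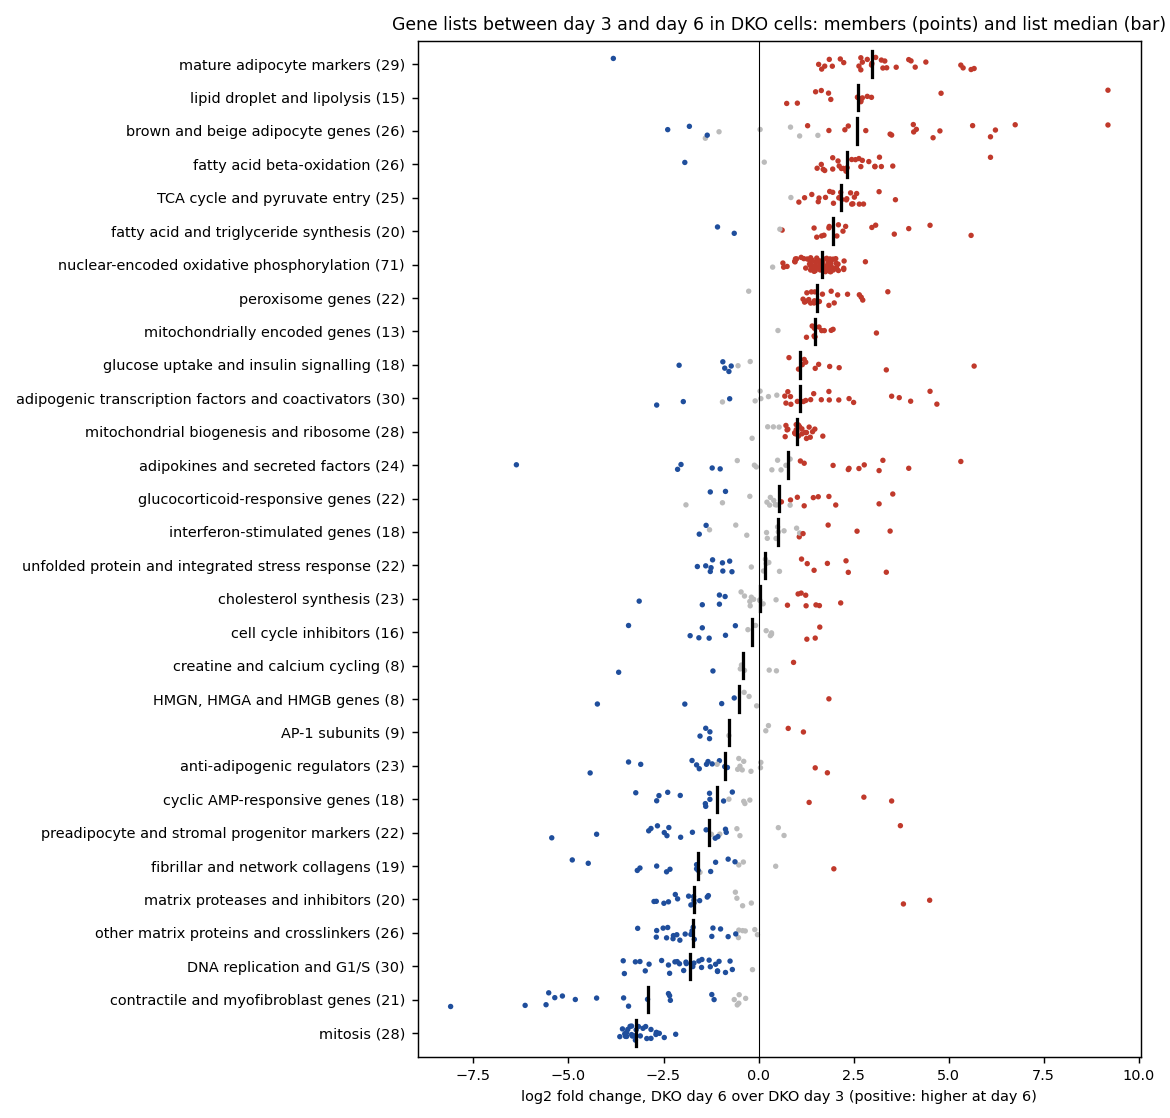
Log2 fold change of day 6 over day 3 in DKO cells for each tested member (points) of the 30 gene lists, with the number tested in brackets and the list median as a black bar. Red points rose, blue points fell and grey points were not called. The lists run from mature adipocyte markers (median 2.98) at the top to mitosis (median -3.23) at the bottom.

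Genes of cell division fell over the same days. All 28 mitosis genes fell (median -3.23), as did 29 of 30 genes of DNA replication and the G1/S passage (median -1.81), where E2f2 was not called. Mki67, the proliferation antigen, was at 149.8, 187 and 193 CPM in the day 3 libraries and at 18.2, 16 and 14.4 CPM in the day 6 libraries. Every day 6 library was below every day 3 library, a fall of 3.49 ± 0.14 on the log2 scale (adjusted p = 8.61e-06). Its mean was 112 CPM at day 0, before the cocktail, and 3.84 CPM at day 9. Cyclin D1 (Ccnd1), which opens G1, fell from 135, 66.8 and 85.8 CPM to 9.68, 10 and 5.68 CPM, and Rrm2, which supplies deoxynucleotides, from 178, 139.7 and 134 CPM to 14.7, 22.2 and 12.8 CPM. Cdc20, the activator of the anaphase-promoting complex, fell from 31.8, 34.5 and 35.9 CPM to 2.83, 3.35 and 2.25 CPM (-3.65 ± 0.15). The inhibitors of the cycle divided: of 16, 3 rose (18.8%, beside 24% of all tested genes) and 7 fell (43.8%, beside 26.2%), with a median of -0.18. Cdkn2c (p18) rose from 23.5, 35.8 and 34.6 CPM to 91.3, 118 and 87.1 CPM, Cdkn1c (p57) fell by 3.42 ± 0.89, and Cdkn1a (p21), which had 215, 198 and 181 CPM and then 235, 301 and 242 CPM, was not called since its fold change was 1.26.

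The promoters of many of these genes hold the same short words. Genes of late cell cycle are known to carry CCAAT boxes, bound by NF-Y, and the cell cycle homology region (CHR), bound by the DREAM and MuvB complexes, and genes of replication carry sites for E2F. RefSeq promoter windows (GRCm38.p6), which run from before to shortly after each start, were searched on both strands for CCAAT, for the CHR as TTTGAA or TTCGAA and for E2F as TTTGGCGC, TTTCGCGC or TTTCCCGC. Of 28 mitosis genes, 24 had a window, and 17 of these (70.8%) held both CCAAT and CHR. The share was 8.23% among the 10553 tested genes with a window and 9.65% among the 27025 genes of all RefSeq windows. E2F letters were in 10 of the 23 replication genes with a window (43.5%), in 4% of the tested genes and in 2.12% of all RefSeq genes. Over all genes that rose and all that fell, CHR was in 16% and 17.9% and CCAAT in 43.3% and 45%. The direct repeat that PPARγ and RXR bind (DR1) was found in 0.445% of the genes that rose and 0.164% of those that fell, too few to describe. Below are the bases before the start of 5 of these genes, printed to show how the letters are arranged, on the strand of the gene and with matches in capitals. Cdc20 and Top2a have CHR and CCAAT, Cdk1 all 3 kinds, and Mcm5 and Mcm6 E2F and CCAAT. Cdk1, Mcm5 and Mcm6 were chosen after the matches were seen. In Mcm5 and Mcm6 a pair of E2F matches overlap, one on each strand. Cdc20 is read from chr4:118437344-118437443 (minus strand), Top2a from chr11:99024190-99024419 (minus), Cdk1 from chr10:69352913-69353062 (minus), Mcm5 from chr8:75109349-75109508 (plus) and Mcm6 from chr1:128359706-128359855 (minus).
Cdc20: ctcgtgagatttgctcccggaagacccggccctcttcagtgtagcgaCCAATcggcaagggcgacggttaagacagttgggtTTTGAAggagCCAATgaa
Top2a: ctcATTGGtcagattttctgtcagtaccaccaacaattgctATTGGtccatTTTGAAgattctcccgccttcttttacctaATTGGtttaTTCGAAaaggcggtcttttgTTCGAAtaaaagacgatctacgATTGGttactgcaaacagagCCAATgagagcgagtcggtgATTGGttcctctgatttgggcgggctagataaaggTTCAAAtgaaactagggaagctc
Cdk1: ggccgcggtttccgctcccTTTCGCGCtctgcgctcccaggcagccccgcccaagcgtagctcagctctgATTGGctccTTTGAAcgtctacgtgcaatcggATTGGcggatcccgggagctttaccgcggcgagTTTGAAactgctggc
Mcm5: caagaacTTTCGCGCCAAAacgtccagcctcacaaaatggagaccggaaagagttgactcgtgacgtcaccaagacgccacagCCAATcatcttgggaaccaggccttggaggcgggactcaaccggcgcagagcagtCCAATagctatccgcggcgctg
Mcm6: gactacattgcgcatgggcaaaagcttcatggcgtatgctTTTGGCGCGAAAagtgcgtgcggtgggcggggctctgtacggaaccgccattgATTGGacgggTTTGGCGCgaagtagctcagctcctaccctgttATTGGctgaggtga
The matches are letters in a window and no measure of binding.

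All 5 of the genes printed above fell. Top2a (topoisomerase II), with 10 matches in the window, went from 172, 206 and 193 CPM to 24.2, 22.3 and 19.6 CPM (-3.16 ± 0.12). Cdk1, the mitotic kinase, went from 53.1, 59.6 and 59.3 CPM to 14.2, 14 and 11 CPM (-2.18 ± 0.12). The replicative helicase subunits fell by 2.98 ± 0.11 for Mcm5, which was at 42.7, 45.4 and 45.3 CPM and then 5.62, 6.82 and 5.11 CPM, and by 2.20 ± 0.11 for Mcm6.

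Extracellular matrix and the contractile apparatus fell as well. Of 19 fibrillar and network collagens, 14 fell and 1 rose (median -1.59), and their share of the counts went from 5.63%, 4.62% and 4.39% to 1.26%, 1.57% and 1.20%. Of 26 other matrix proteins and crosslinkers, 20 fell and none rose (median -1.73). Col1a1 (chromosome 11, 94936224 to 94953042) was at 4318, 3543 and 3840 CPM in the day 3 libraries and at 452, 494 and 442 CPM in the day 6 libraries. The spread within a day was small beside the 8.72-fold difference (-3.12 ± 0.13, adjusted p = 8.39e-06). Col3a1 lost the most CPM of any protein-coding gene, from 27595, 21120 and 16491 CPM to 2130, 3244 and 2011 CPM, followed by fibronectin (Fn1, -1.72 ± 0.16) and Sparc (-2.24 ± 0.20). The collagen that rose was Col5a3, from 65.2, 68.9 and 67 CPM to 273, 291 and 256 CPM (1.98 ± 0.08, adjusted p = 8.61e-06). Among 20 matrix proteases and their inhibitors, 14 fell and 2 rose (median -1.70). Gelatinase Mmp2 fell from 931, 1064 and 999 CPM to 197, 214 and 190.4 CPM, and the inhibitor Timp3 by 2.75 ± 0.62. Mmp9 (gelatinase B), which macrophages also make, rose from 1.12, 1.92 and 0.687 CPM to 12.8, 26.4 and 15.2 CPM. The part of macrophage markers in this rise was not tested.

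Contractile genes showed some of the steepest falls. Of 21 tested, 16 fell and none rose (median -2.92). Smooth muscle actin (Acta2) was at 508, 248 and 419.6 CPM at day 3 and at 11.7, 8.41 and 5.06 CPM at day 6 (-5.59 ± 0.43, adjusted p = 8.82e-05), and the actin-binding Tagln went from 289, 149 and 249 CPM to 6.81, 5.66 and 2.99 CPM. The day 3 libraries of both genes differed among themselves and still lay far above day 6. Of 22 stromal progenitor markers, 15 fell and 1 rose (median -1.31). Pi16, which marks early progenitors of the fat pad, fell from 22.2, 44.6 and 37.1 CPM to 1.14, 1.21 and 0.176 CPM, Cd24a from 164, 211 and 298 CPM to 11.5, 17.1 and 8.06 CPM, and Pdgfra, the receptor of fibroblast-like precursors, by 2.48 ± 0.35. The marker that rose was the ectoenzyme Nt5e (CD73), from 2.21, 11.5 and 5.42 CPM to 90.8, 79.3 and 90.5 CPM. Dlk1 (Pref-1), the classical preadipocyte marker, was at 1.22, 6.63 and 19.2 CPM and then 7.13, 5.55 and 7.18 CPM, with overlapping days, and was not called.

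Targets of the withdrawn agents did not move as one. Of 22 glucocorticoid-responsive genes, 10 rose and 2 fell (median 0.54), although dexamethasone was present at day 3 only. Fkbp5, a chaperone induced by the receptor, rose from 129, 215 and 291 CPM to 661, 506 and 616 CPM (1.44 ± 0.30, adjusted p = 0.00497), and glutamine synthetase (Glul) from 359, 402 and 370.3 CPM to 1461, 1805 and 1507 CPM. Sgk1 fell by 1.27 ± 0.38. Per1, at 59, 61.1 and 68.3 CPM and then 77.1, 76.8 and 72.5 CPM, had a change of 0.22 ± 0.08, under the fold change asked of a call, and -0.00 with library size scaling. Several members of this list, Glul and Pdk4 among them, are also genes of fat cells. Of 18 cyclic AMP-responsive genes, 11 fell and 3 rose (median -1.10). Nr4a1 went from 121, 111 and 97.9 CPM to 17.5, 22.3 and 13.4 CPM, Nr4a2 from 11, 11.8 and 13.6 CPM to 1.14, 1.65 and 1.23 CPM and the phosphodiesterase Pde4b from 74, 105 and 98.8 CPM to 23.7, 26.2 and 19 CPM. No library of day 6 reached the level of day 3 for these 3 genes. Those that rose were Ppargc1a, Pde3b (2.77 ± 0.13), the insulin-stimulated phosphodiesterase of fat cells, and Rgs2. In the AP-1 family, 4 of 9 fell (44.4%, beside 26.2% of all tested genes) and 2 rose (22.2%, beside 24%). The FRA proteins Fosl1 and Fosl2 changed by -1.54 and -1.29 and Junb by -1.28, Atf3 rose from 6.29, 5.75 and 4.84 CPM to 12.2, 12.5 and 14.8 CPM, Jund rose as well, and Fos (-0.78 ± 0.43, adjusted p = 0.156) and Jun (0.26 ± 0.11, adjusted p = 0.0618) were not called.

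Other chromatin proteins of the high mobility group changed while Hmgn1 counts stayed level (-0.05 ± 0.08, adjusted p = 0.615). Hmga2, a growth-associated protein of proliferating mesenchymal cells, fell from 45.1, 49 and 54.6 CPM to 3.2, 3.19 and 1.76 CPM. Hmgb2, high in dividing cells, fell by 1.94 ± 0.19, and Hmgb3 rose by 1.85 ± 0.16. Of the remaining HMGN genes, Hmgn3 fell from 17.7, 29.5 and 28.4 CPM to 13.9, 14 and 11.9 CPM (-0.97 ± 0.20, adjusted p = 0.00432), and Hmgn5 was not called (-0.25 ± 0.15, adjusted p = 0.193).

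The stress list held genes that moved in both directions. Of 22 genes of the unfolded protein and integrated stress responses, 7 rose (31.8%, beside 24% of all tested genes) and 9 fell (40.9%, beside 26.2%), with a median of 0.16. Trib3, a pseudokinase target of ATF4 and CHOP, was at 7.05, 5.94 and 5.38 CPM at day 3 and at 68, 44.8 and 81.8 CPM at day 6 (3.36 ± 0.26, adjusted p = 5.80e-05). Ddit3, Chac1, Asns and the mitochondrial folate enzyme Mthfd2, which ATF4 also induces, rose by 1.81 ± 0.19, 2.30 ± 0.26, 1.28 ± 0.12 and 1.46 ± 0.09. Those that fell included the folding proteins of the endoplasmic reticulum Pdia4 at -1.61 ± 0.11 and Hsp90b1 at -1.25 ± 0.10. The members not called included Atf4 (0.55 ± 0.09), Psat1 (0.18 ± 0.19) and Shmt2 (0.27 ± 0.10), and the chaperone Hspa5 (BiP), which was at 992, 1087 and 1079 CPM and then 869, 992 and 1012 CPM. Cholesterol synthesis had no common direction. Of 23 genes, 8 were higher (34.8%, beside 24% of all tested genes) and 5 lower (21.7%, beside 26.2%), with a median of 0.03. Cyp51 rose by 2.16 ± 0.24. Of 18 interferon-stimulated genes, 5 rose (27.8%, beside 24% of all tested genes) and 2 fell (11.1%, beside 26.2%), with a median of 0.51. The rises included Ifi27 (1.83 ± 0.18). It was highest in replicate 2 of day 6, and the median of this list was -0.00 without that library.

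The genes with the smallest p-values, taken in each direction among protein-coding genes with no overlap and at least 10 CPM at one day, came from the same programmes. Among those that rose were Mlxipl, Bckdha, Thrsp, Slc25a34, Aifm2, Acer2, A530016L24Rik, Fam13a and Nr1h3. Bckdha, a subunit of the enzyme that commits branched-chain amino acids to oxidation, was at 45.7, 44.3 and 43.6 CPM in the day 3 libraries and at 272, 287 and 284 CPM in the day 6 libraries. The replicates of each day were close to each other beside the gap between the days, and the rise was 2.61 ± 0.08 (adjusted p = 6.78e-06). Acer2, a ceramidase of the Golgi, rose by 4.38 ± 0.15 and the mitochondrial carrier Slc25a34 by 5.53 ± 0.16. Those that fell were Aspm, Gm10260, Tpx2, Fkbp10, Ckap4, Cenpe, Rps27rt, Anln, Top2a and Spon2. Aspm, Tpx2, Cenpe, Anln and Top2a belong to cell division, and Fkbp10, which helps collagen fold, fell from 183, 172 and 172 CPM to 27.4, 31.2 and 25 CPM. Gm10260 and Rps27rt resemble copies of ribosomal protein genes, with which they share reads, so their values are uncertain.

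Most of these changes were shared with WT cells. Of 15368 genes tested in WT cells, 7060 (45.9%) were called. Among 14793 genes tested in both genotypes, 2840 rose in both, which is 80.6% of the DKO rises and 86.9% of the WT rises, and 3072 fell in both (79.3% and 87.6%). The calls were in opposite directions in 5 genes. A difference between the genotypes was tested as an interaction of day and genotype in the 12 libraries. Of 15975 genes, 51 (0.319%) were called, 22 with the step higher in DKO and 29 lower, and 2393 had an unadjusted p under 0.05. This count rests on single libraries. It was 15, 10 and 21 without replicates 1, 2 and 3 of DKO day 3, 19, 87 and 11 without those of DKO day 6, 10 and 31 without replicates 1 and 2 of WT day 3, and 13 and 6 without replicates 1 and 3 of WT day 6. It changed little, at 51 and 55, without replicate 3 of WT day 3 or replicate 2 of WT day 6. DESeq2 called 577. The split by direction was 11 to 34 with library size alone and 61 to 25 in a fit over all 24 preadipocyte libraries. For Ucp1 the DKO and WT steps differed by 0.44 ± 1.15 (adjusted p = 0.895), with 0.0441, 0.0855 and 0.329 CPM at day 3 and 7.7, 10.5 and 10.5 CPM at day 6 in WT cells. The WT values of Fabp4 were 216, 866 and 544 CPM and 10039, 12452 and 9969 CPM, a difference in step of -0.94 ± 0.54 (adjusted p = 0.449). Neither gene was called, so a difference in the step was not detectable for them with 3 libraries a group.

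**Figure D4:**
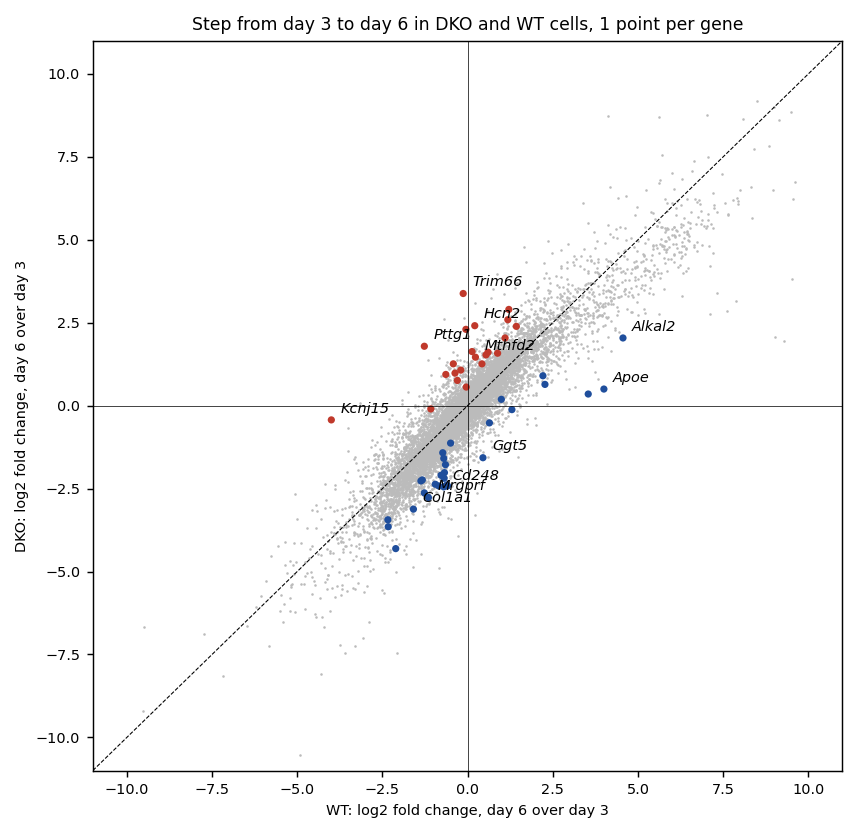
Log2 fold change of day 6 over day 3 in DKO cells (vertical axis) against the same in WT cells (horizontal axis), 1 point per gene tested, with the dashed line at equal change. Red and blue points are genes whose step was called higher or lower in DKO cells in the interaction test. Most genes follow the line, and Pttg1, Trim66 and Kcnj15 lie far above it and Apoe and Alkal2 far below.

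Pttg1 (securin, which holds sister chromatids together until anaphase; chromosome 11, 43420250 to 43426251) had the smallest p-value and rose in DKO cells while it fell in WT cells. It is not a member of the mitosis list. In DKO cells it was at 9.72, 10.4 and 9.22 CPM at day 3 and at 33.9, 32.6 and 38.4 CPM at day 6, while in WT cells it was at 9.88, 10.4 and 11.7 CPM and then 4.4, 4.35 and 4.52 CPM. The genotypes were alike at day 3 and did not overlap at day 6. The steps were 1.79 ± 0.11 and -1.27 ± 0.13, a difference of 3.06 ± 0.14 (adjusted p = 2.82e-06) that was called under all 19 alternatives. Cdc20 and Aspm, in contrast, fell further in DKO cells, with differences of -1.32 and -1.10 on the log2 scale. Each of the 28 mitosis genes had a lower step in DKO than in WT cells (median difference -1.0), but Cdc20 was the one called. Over all 15975 tested genes the median difference was -0.04. It was -0.12 with library size alone and 0.00 in the fit over all 24 preadipocyte libraries. Mthfd2 rose from 34.9, 32.7 and 33.4 CPM to 92.4, 90.6 and 104 CPM in DKO cells and was at 41.2, 47.2 and 35.1 CPM and then 44.9, 52.8 and 47.3 CPM in WT cells (1.23 ± 0.15, adjusted p = 0.01). Chac1 of the stress list also differed (2.35 ± 0.37, adjusted p = 0.0323), whereas Trib3 (2.30 ± 0.41, adjusted p = 0.0536) and Ddit3 (1.40 ± 0.28, adjusted p = 0.0715) did not pass. Gabarapl1, an ATG8-family protein of autophagosomes, rose from 149, 134 and 151 CPM to 434, 399 and 552 CPM in DKO cells and was at 249, 195 and 177 CPM and then 213, 232 and 235 CPM in WT cells (1.5 ± 0.20, adjusted p = 0.019). Trim66, which was at 0.56, 0.307 and 0.506 CPM in DKO cells and 0.926, 1.11 and 0.658 CPM in WT cells at day 3, reached 4.25, 3.24 and 7.4 CPM in DKO cells at day 6 and 0.676, 1 and 0.767 CPM in WT cells. The potassium channel Kcnj15 was at 26.5, 29.6 and 20.7 CPM and then 16.9, 27.5 and 14.8 CPM in DKO cells, with overlapping days, and fell from 22.4, 14 and 38 CPM to 1.84, 1.39 and 1.41 CPM in WT cells (3.57 ± 0.52, adjusted p = 0.0294). Kcnj15 lies at 95257558 to 95300260 on chromosome 16, near the targeted Hmgn1 at 96120618 to 96127729. For this gene, lack of the HMGN proteins and sequence carried along with the targeted locus cannot be told apart.

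The step was lower in DKO cells for several genes of matrix and stroma among others. Cd248 (endosialin), a glycoprotein of stromal precursors, fell from 408, 387 and 433 CPM to 73.2, 102 and 58 CPM in DKO cells, against 330.3, 302 and 334 CPM and 198, 190.2 and 206 CPM in WT cells (-1.75 ± 0.22, adjusted p = 0.01). Col1a1, Col1a2 and Mmp2 fell further in DKO cells as well, with differences of -1.53 ± 0.23, -1.56 ± 0.24 and -1.42 ± 0.23. All 19 collagens had a lower step in DKO cells (median difference -0.98, beside -0.04 over all tested genes), Col1a1 and Col1a2 being the ones called. Ggt5, which cleaves leukotriene C4, fell from 39.7, 49.8 and 36.1 CPM to 14.7, 15.9 and 13 CPM in DKO cells and was at 24.5, 25.9 and 29.5 CPM and then 38.1, 33.5 and 37.6 CPM in WT cells, where the step was not called (-2.03 ± 0.18, adjusted p = 7.38e-04). Vasp, an actin regulator, and Mrgprf differed by -0.89 ± 0.09 and -1.62 ± 0.18. Apolipoprotein E (Apoe) was at 588, 912 and 828 CPM in DKO cells at day 3 and at 1283, 1161 and 964 CPM at day 6, while WT cells went from 30, 25.3 and 31.9 CPM to 224, 655 and 515 CPM (-3.49 ± 0.46, adjusted p = 0.02). The genotypes did not overlap at either day, and the gap was the wider one at day 3. Macrophages also express Apoe, and their markers rose in both genotypes. The summed share of these markers at day 6 was 0.621%, 0.26% and 0.432% in DKO libraries and 0.758%, 1.25% and 1.24% in WT libraries. None of the 12 tested markers had a higher step in DKO cells (median difference -1.33), and none was called. The part of macrophages in the Apoe result was not tested. Of the 19 alternatives tried, the call of the interaction held in 18 for Ggt5, Vasp, Mrgprf and Mthfd2, in 16 for Cd248, 15 for Gabarapl1, 14 for Apoe, 10 for Col1a2, 9 for Col1a1, Mmp2, Cdc20 and Kcnj15, 8 for Chac1 and Trim66 and 7 for Aspm. The mature adipocyte markers had a lower step in DKO cells for 28 of 29 genes, with none called. Their median difference was -0.99, beside -0.04 over all tested genes. The summed share of these markers at day 3 was 0.578% to 0.823% in DKO libraries and 0.121% to 0.396% in WT libraries.

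**Figure D5:**
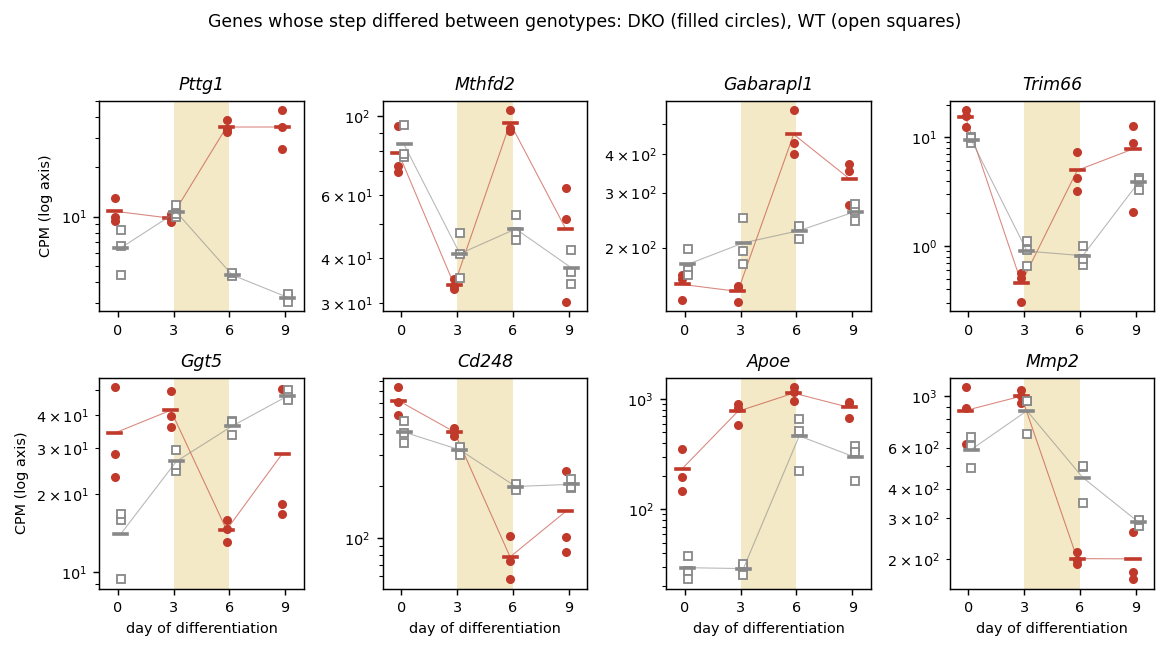
Levels of 8 genes whose step from day 3 to day 6 (shaded) differed between genotypes, in single DKO libraries (filled circles) and WT libraries (open squares) at days 0, 3, 6 and 9, in CPM on a log axis, with marks and lines at the group means. Pttg1, Mthfd2, Gabarapl1 and Trim66 climb in DKO cells over the shaded step, Ggt5, Cd248 and Mmp2 drop further there, and Apoe is already high in DKO cells at day 3.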

How the data were processed

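RNA-seq libraries of DKO preadipocytes at days 3 and 6 of induced browning (3 per day) were compared, with the WT libraries of the same days beside them. The authors deposited expected counts per gene without normalization: 50 bp strand-specific paired-end reads were trimmed with cutadapt 1.18, aligned to mm10 with STAR 2.7.0f and estimated with RSEM 1.3.0, after bcl2fastq 2.17, per the submitters' processing notes and the study's methods. RSEM divides reads shared by near-identical genes. All 55450 gene identifiers matched GENCODE M21, the source of positions.

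The values were rounded to whole numbers and fitted in edgeR 4.0.16 under R 4.3.3 (filterByExpr, TMM, robust quasi-likelihood test with day as the one term). A call needed a 1.5-fold change and a p-value under 0.05 after Benjamini-Hochberg adjustment. The interaction of day and genotype was fitted on 12 libraries with 4 group means. An exact permutation test of 3 against 3 libraries cannot go below 0.1 and was not used. DKO libraries of one day differed by more than sampling noise (chi-square per degree of freedom 19.2 to 78.6), so they were not copies of one another. Each was treated as 1 replicate, although these values cannot show whether they came from separate animals or cultures. Genes at or under 3 counts in each library of a day are given no fold. The scripts were run on simulated data, with a minimum recovery required for the step in each genotype but not for the interaction.

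The comparison, the 30 gene lists, the 6 marker lists and the rules for named genes were chosen with earlier results of these data known. Named are 80 chosen genes of the fat cell, matrix, cell cycle and chromatin, of which 78 could be tested, and, per direction, the 10 called protein-coding genes with the smallest p-value without overlap and at or above 10 CPM, the 8 with the smallest interaction p-value, up to 4 called members of a list with the largest change at or above 5 CPM, and the 3 with the largest change in CPM. Other genes named were chosen after their values were seen, from the fixed lists. Lists are described by counts and medians with no test of the set. Alternatives were DESeq2 1.42.0, library size scaling, limma-voom with quantile normalization (limma 3.58.1), no filter or 0.5 CPM in 2 libraries, other fold thresholds, a fit over 24 libraries, a replicate block and leaving out each library. MEF counts were not used here, and a few named genes are not reported here. Promoter sequences are RefSeq's (GRCm38.p6).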

Additional observations from a re-analysis of the deposited data

Results flagged for a closer look

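The difference in the step from day 3 to day 6 between DKO and WT cells was tested as an interaction with edgeR's quasi-likelihood test, and 21 named genes passed it, each given here as the DKO step minus the WT step on the log2 scale. The step was higher in DKO cells for Kcnj15 (3.57), Trim66 (3.51), Pttg1 (3.06), Chac1 (2.35), Hcn2 (2.20), Stbd1 (1.59), Gabarapl1 (1.5), Fbxo44 (1.27) and Mthfd2 (1.23). Of these, Kcnj15 lies near the targeted Hmgn1 locus. It was lower in DKO cells for Apoe (-3.49), Alkal2 (-2.52), Ggt5 (-2.03), Cd248 (-1.75), Mrgprf (-1.62), Col1a2 (-1.56), Col1a1 (-1.53), Mmp2 (-1.42), Cdc20 (-1.32), Gusb (-1.17), Aspm (-1.10) and Vasp (-0.89). The pacemaker channel Hcn2 was at 3.33, 2.99 and 3 CPM at day 3 and at 12.8, 14.6 and 23.9 CPM at day 6 in DKO cells, and at 3.17, 3.51 and 2.77 CPM and then 3.27, 4.08 and 3.55 CPM in WT cells. Its WT days overlapped, while each DKO library of day 6 was above each of day 3. Stbd1, which binds glycogen, went from 10.3, 9.05 and 8.85 CPM to 19.6, 14.5 and 21.8 CPM in DKO cells and from 16.7, 18.4 and 12.8 CPM to 10.1, 10.6 and 9.97 CPM in WT cells, in opposite directions. Gusb, the lysosomal beta-glucuronidase that is often used as a reference gene, was at 84.8, 86.2 and 105 CPM and then 72.4, 67.6 and 58.9 CPM in DKO cells, a step that was not called, and rose from 72.2, 76.2 and 86.2 CPM to 111, 124 and 132 CPM in WT cells. Alkal2, a ligand of the ALK receptor, rose in both genotypes, to 3.93, 7.2 and 4.93 CPM in DKO cells and 8.42, 8.82 and 7.83 CPM in WT cells. The ubiquitin ligase subunit Fbxo44 was at 4.48, 4.49 and 4.59 CPM and then 10, 9.56 and 9.91 CPM in DKO cells and at 6.7, 5.04 and 5.7 CPM and then 5.04, 5.82 and 4.36 CPM in WT cells. Of the 19 alternatives, Pttg1 passed in all, and Hcn2, Stbd1 and Alkal2 passed in 11 each.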

How the results depend on the processing

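The number of genes called between the days in DKO cells was 7457 with DESeq2, 7696 with library size scaling, 7568 with limma-voom and quantile normalization, 7979 without a filter, 7667 with 0.5 CPM in 2 libraries, 8389 in a fit over all 24 preadipocyte libraries and 7009 to 7623 when 1 library was left out. Of the alternatives computed for the fold changes of single named genes, 1449 kept direction and side of the threshold, 17 lost the call, 11 gained it and 5 reversed. The reversals were Per1 with library size scaling (-0.00) and Prdm16 with library size scaling (-0.18), without replicate 1 or 2 of DKO day 3 (-0.05 each) and without replicate 3 of DKO day 6 (-0.14). List medians reversed for cholesterol synthesis with library size scaling (-0.19), with limma-voom (-0.03) and without DKO day 3 replicate 1 (-0.13) or DKO day 6 replicate 2 (-0.12), for the stress responses with library size scaling (-0.06) and for interferon-stimulated genes without DKO day 6 replicate 2 (-0.00). When 1 library was left out, these values ranged up to 0.23 for Prdm16, 0.13 for cholesterol synthesis and 0.86 for interferon-stimulated genes. The causes were not tested. The number of interaction calls moved most. It was 577 with DESeq2, 117 without a filter, 86 in the fit over all 24 libraries and 6 to 87 when 1 library was left out, while WT calls stayed between 6388 and 7205. The interaction count stayed near 51 in other settings, at 45 with library size scaling, 45 with limma-voom and 51 with 0.5 CPM in 2 libraries.

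The replicate number as a block gave 7359 calls in DKO cells, 6831 in WT cells and 8 in the interaction. The numbers were not shown to pair libraries: the correlation of same-numbered DKO libraries across days, after removing the mean of each group, was -0.00711, -0.0187 and 0.0227, and in WT cells -0.0175, 0.115 and -0.0362.

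Depth limits genes such as Cidea, Cox8b and Lep, which had few or no counts at day 3. All values are relative to the sum of a library, and the 10 most abundant genes took more of it at day 6. The labels name polyA RNA and the study's methods a total RNA kit. Day, medium and the share of macrophage markers changed together in these libraries, and their parts cannot be told apart.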
